A study of Mus musculus with 6 samples.

Results

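The 3 genes described here are *Cd274*, which encodes PD-L1, *Pdcd1lg2*, which encodes PD-L2, and *Tnfsf18*, which encodes the GITR ligand. They were chosen by name and are 3 of the 31053 genes in the count table, of which all 3 had at least 1 read. Their transcripts were counted in CD45+-enriched cells of CT26 tumors, cell by cell, by a droplet method. CT26 is a mouse colon carcinoma line, grown under the skin of female Balb/c mice, and the tumors were taken 5 days after treatment. The sample labels list 6 tumors in 3 groups of 2, given vehicle, a low dose or a high dose of a bispecific that joins an anti-PD-1 antibody to GITR ligand. The labels give 30 mg kg-1 for the high dose, and for the low dose 10 mg kg-1 in one field and 30 mg kg-1 in another.

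The deposited table names 4 libraries, M1, M2, M5 and M6, and nothing in the labels or methods ties these names to a tumor or a dose. No value was therefore compared between treatments, no p-value is given, and the libraries are reported one by one without being treated as replicates. The table holds 33961 cells with between 1220 and 213981 transcripts each, counted by unique molecular identifier (UMI). Median depth per cell was 21800.5 UMIs (M1), 20266 (M2), 11399 (M5) and 12096 (M6), and 222 cells had a barcode also found in another library. The cell type labels are those of the authors, set by likeness of whole profiles to ImmGen, a reference of mouse immune cells, so a label set against the rest is a description and not a test. Levels are in CPM, the UMIs of a gene over all UMIs of the cells summed, times 1e6, and are compared between cell types and not between genes.

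PD-L1 and PD-L2 are surface proteins of the B7 family. They bind the receptor PD-1 on activated T cells and dampen signaling from the antigen receptor, and antibodies to PD-1 block that contact. PD-L1 is found on many cell types and is a known target of interferon gamma through the factor IRF1, whereas PD-L2 is best known from dendritic cells and macrophages. GITR ligand belongs to the TNF family, is known from antigen-presenting and endothelial cells, and stimulates T cells through GITR, the product of *Tnfrsf18*.

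*Cd274* and *Pdcd1lg2* lie next to each other on chromosome 19 of GRCm38. In the GENCODE M21 annotation *Cd274* spans 29367455 to 29388095 on the plus strand, and *Pdcd1lg2* spans 29410919 to 29471161 on the same strand, starting 22824 bases after *Cd274* ends. *Tnfsf18* lies on chromosome 1 at 161494655 to 161505290, plus strand, 76245 bases after the end of *Tnfsf4*, the gene of OX40 ligand. The 3' part of *Pdcd1lg2* shares 6412 bases with the antisense gene *A930007I19Rik*, so reads there could be split, which was not tested. That gene had 20.6 CPM in Myeloid cells and 5.04 in ILC.

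The 250 bases before the start of the 2 neighbouring genes are shown because *Cd274* varied with interferon genes from cell to cell in Stroma, while *Pdcd1lg2* did not do so in ILC. They are RefSeq promoters on build GRCm38.p6, plus strand, chr19:29367188-29367437 for *Cd274* and chr19:29410669-29410918 for *Pdcd1lg2*, and capitals mark the letters matched by a motif.
Cd274: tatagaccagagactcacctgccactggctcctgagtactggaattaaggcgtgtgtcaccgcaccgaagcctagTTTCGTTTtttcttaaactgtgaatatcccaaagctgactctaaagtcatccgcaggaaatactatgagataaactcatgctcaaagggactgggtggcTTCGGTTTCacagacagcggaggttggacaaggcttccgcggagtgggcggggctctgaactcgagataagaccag
Pdcd1lg2: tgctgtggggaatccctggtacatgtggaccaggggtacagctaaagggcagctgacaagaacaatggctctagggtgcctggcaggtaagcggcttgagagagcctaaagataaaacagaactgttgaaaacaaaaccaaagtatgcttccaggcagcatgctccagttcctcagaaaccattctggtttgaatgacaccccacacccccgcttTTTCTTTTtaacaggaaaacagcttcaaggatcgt
All 3 genes were found in the promoter table. A search of both strands over 300 bases (250 before and 50 after the start) found no match in any of the 3 genes to GAS (TTCNNNGAA, in 8.30% of all promoters), to ISRE (GAAA, any 2 bases and GAAA, in 3.44%) or to kappa B (GGGA, any base and TTTCC, in 0.411%). Shorter letters were then tried after the sequences had been seen. The IRF core AANNGAAA, which 23.9% of promoters hold, was matched once each in *Cd274* and *Pdcd1lg2* and 2 times in *Tnfsf18*. The shortened ISRE GAAANNGAA, in 8.56% of promoters, was matched in *Cd274* alone of the 3 genes, 76 bases before the start. These letters are contained in the full ISRE, and the match overlaps no other one. A match describes letters and not binding.

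*Cd274* was found in every label and was highest in Myeloid cells. In Myeloid cells it had 168 (M1), 269 (M2), 446 (M5) and 497 CPM (M6), with 367 in all libraries together (13942 UMIs). In DC the values were 111, 139, 164 and 225 CPM in the same order, and 158 together. The 2 ranges overlap, because Myeloid cells of M1 lay below DC of M6, but within each of the 4 libraries Myeloid cells were higher. The log2 ratio of the pooled levels was 1.21 (95% counting interval 1.13 to 1.29), and 1.84 with every cell weighted equally (546 against 152 CPM).

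The lymphocyte labels followed. T cell MEM cells had 67.9, 90.6, 155 and 145 CPM of *Cd274* in M1, M2, M5 and M6, NKT cells had 118, 95.7, 143 and 133, and ILC had 75.9, 98.7, 124 and 134. Each of these neighbours overlapped over the libraries, and T cell MEM was above NKT in 2 of 4 libraries, as NKT was above ILC. ILC exceeded T cell EFF in 4 of 4 libraries. T cell EFF cells (43.7 to 85.7 CPM) and NK cells (49.0 to 69.0) could not be ordered, each being higher in 2 libraries.

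Stroma, the largest label with 15687 cells and nearly without the CD45 transcript *Ptprc* (7.47 CPM, against 463 to 1240 in the other 7 labels of at least 500 cells), had the lowest *Cd274* level of the labels of that size. Its values were 28.0 (M1), 34.3 (M2), 74.3 (M5) and 68.0 CPM (M6), and NK cells were above it in 3 of 4 libraries. Since Stroma cells carry most UMIs of the table, they still held 48.8% of the 60396 *Cd274* UMIs, and Myeloid cells held 23.1%. Whether Stroma cells are stromal cells or carcinoma cells of the tumor was not tested, so Stroma is used here only as the authors' label.

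**Figure D1:**
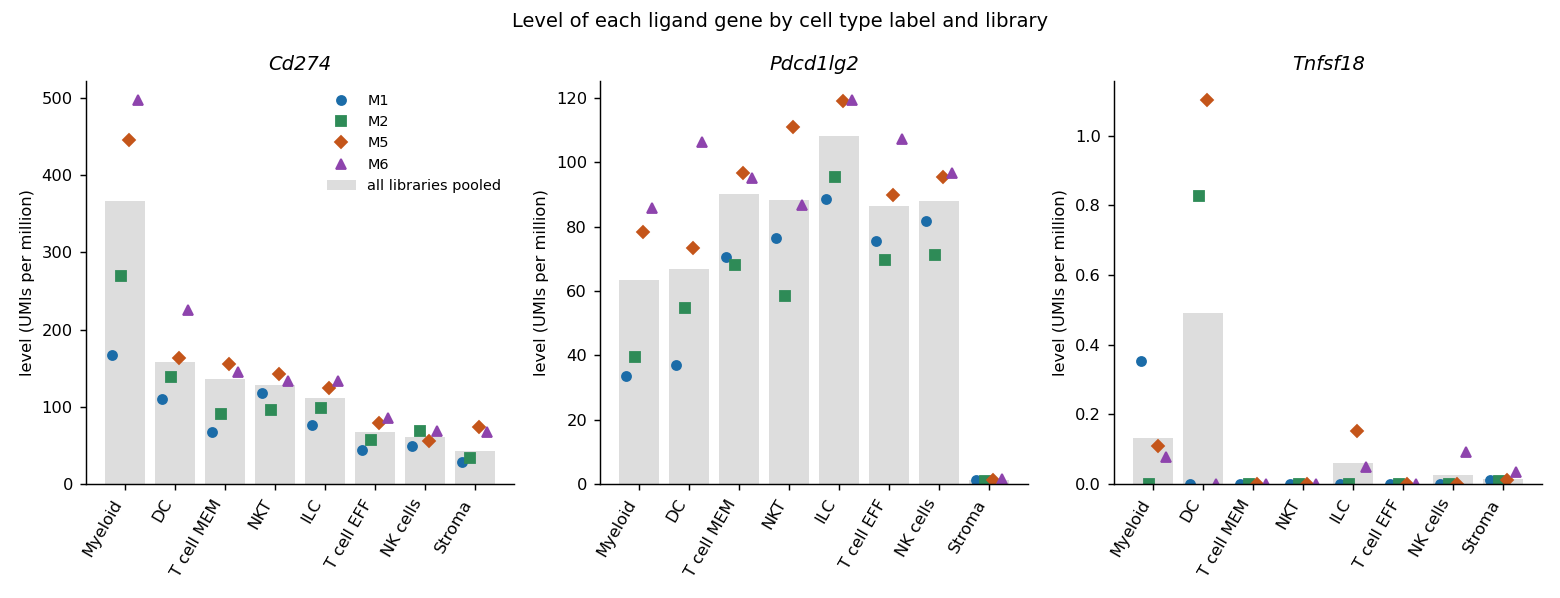
Level of *Cd274*, *Pdcd1lg2* and *Tnfsf18* in CPM (vertical axes, separate scales starting at 0) in the 8 labels of at least 500 cells. Bars are all libraries pooled and points are the 4 libraries. *Cd274* is highest in Myeloid cells, *Pdcd1lg2* lies between 63.4 and 108 CPM in every label but Stroma, and *Tnfsf18* stays below 1.2 CPM, on few UMIs.

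*Pdcd1lg2* was found in lymphocytes as well as in Myeloid cells and DC, and hardly in Stroma. ILC had 88.6 (M1), 95.5 (M2), 119 (M5) and 119 CPM (M6), with 108 in all together. T cell MEM had 90.3 CPM, NKT 88.2, NK cells 88.0, T cell EFF 86.3, DC 66.9 and Myeloid 63.4. All neighbours among these 7 labels overlapped over the libraries. Even so, ILC was above T cell MEM in 4 of 4 libraries, and T cell EFF was above DC in 4 of 4.

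The Stroma level of *Pdcd1lg2* stood apart, at 0.959 to 1.62 CPM over the libraries. The lowest value in any other label of this size was 33.6 CPM, in Myeloid cells of M1. By share of the 20497 *Pdcd1lg2* UMIs, ILC held 35.7%, T cell EFF 22.1%, NK cells 17%, Myeloid 11.7% and Stroma 4.04%.

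Among 9709 genes with at least 10 CPM in a label of that size, 49.5% were highest in the same label in all 4 libraries, and both PD-1 ligands were among them. For *Cd274* the label was Myeloid, as for 7.37% of genes. For *Pdcd1lg2* it was ILC, which was so for 15 genes (0.154%). The shares for the other labels were 23.2% for Stroma, 6.88% for DC, 6.13% for NKT, 2.52% for T cell EFF, 2.32% for NK cells and 0.927% for T cell MEM. Of the 8 labels, ILC had the highest share of cells of high doublet score: 12.6% of them fell among the 6% of cells with the highest scores in their library. Without those cells the ILC level was 118 CPM against 88.3 in T cell MEM.

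Because the chance of finding a transcript grows with depth, shares were counted on UMIs drawn down to 2000 per cell, without the 696 cells that had fewer. After thinning, 45.2% of Myeloid cells had a *Cd274* UMI (exact binomial limits at 95%, 43.3 and 47.2, for counting error alone), from 28.9% in M1 to 56.8% in M6. The share was 23.4% in NKT, 19.9% in DC, 18.4% in ILC, 16.4% in T cell MEM, 12.7% in NK cells, 11% in T cell EFF and 7.67% in Stroma. Unthinned, 73.6% of Myeloid cells and 44.5% of Stroma cells had a UMI, at median depths of 8027 and 40692 UMIs. The order of DC and NKT by share is thus the opposite of that by CPM, and no order between them is read here.

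Myeloid cells also held more copies per cell. At 2000 UMIs, 22.1% of them had 2 or more *Cd274* UMIs, against 1.25% of Stroma cells and 1.72% of T cell EFF cells. The highest count in a thinned Myeloid cell was 20.

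For *Pdcd1lg2* the thinned share was 18.9% in ILC (17.8 to 20.1), 16.0% in T cell EFF, 14.4% in NKT, 14.3% in T cell MEM, 13.9% in NK cells, 11.5% in DC and 8.48% in Myeloid cells. In Stroma it was 0.185% (0.124 to 0.266), or 29 of 15642 cells. Unthinned shares were 59.8% of ILC and 3.62% of Stroma cells, at median depths of 9773.5 and 40692 UMIs. Every other label of at least 500 cells lay above the Stroma share, but Stroma also had less *Lyz2* (13.3 CPM, against 134 to 554 in the lymphocyte labels), so it is no measure of free RNA in those labels.

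*Tnfsf18* was close to absent. It had 24 UMIs in 18 of 33961 cells, and 24.9% of genes with any UMI had fewer. The 24 UMIs fell in 7 Stroma cells (10 UMIs), 5 Myeloid cells (5), 3 DC (4), 2 ILC (4) and 1 NK cell (1). No cell labelled T cell EFF, T cell MEM or NKT had one.

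By CPM, DC came first, at 0.490 CPM, with values of 0 (M1), 0.828 (M2), 1.10 (M5) and 0 (M6). Myeloid cells had 0.132 CPM, with a range of 0 to 0.354. The DC value rests on 4 UMIs, and weighting every cell equally put Myeloid first (0.374 against 0.211 CPM), so no order of the labels is read for this gene. After thinning, 2 Myeloid cells and no other cell had a UMI, and 0 of 539 DC at that depth allows a share with a UMI of up to 0.557%. Unthinned, 3 of 556 DC had one (0.540%).

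The few *Tnfsf18* cells can be described one by one. All 3 DC, with 1, 1 and 2 UMIs, belonged to the 126 DC picked, after thinning, by UMIs of *Xcr1* or *Clec9a*, markers of cross-presenting dendritic cells, which held all 4 DC UMIs. At full depth, of 45623, 22692 and 38767 UMIs in all, the same 3 cells held 1, 1 and 7 UMIs of *Ccr7*, *Fscn1* and *Cacnb3*. These genes of mature dendritic cells had 456, 280 and 98.2 CPM over all DC, so such counts do not mark the 3 cells as mature. One Stroma cell of M6 had 3 UMIs together with 69 UMIs of the endothelial genes *Pecam1*, *Cdh5* and *Kdr*. An ILC of M5, with 48438 UMIs in all, had 3 UMIs of *Tnfsf18*, 56 of *Ptprc* and 4 of the endothelial genes. *Pecam1* alone had 104 CPM over all ILC, so those 4 do not set the cell apart. At the depth of these data *Tnfsf18* could not be compared across cell types.

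Labels can hold several cell types, so cells were picked within them by UMIs of marker genes, with none of the 3 ligand genes used in picking. Picking was done on the UMIs left after thinning to 2000 per cell, so a cell picked as without a marker can hold its transcript at full depth, whereas the CPM of the picked cells use all their UMIs. DC were picked in the order *Ccr7*, *Xcr1*, *Siglech* and *Cd209a* sets, each without the cells of the sets before. Among Myeloid cells, those with at least 5 UMIs of *S100a8* and *S100a9*, genes abundant in neutrophils and inflammatory monocytes, had the most *Cd274*. These 363 cells had 443 (M1), 451 (M2), 969.5 (M5) and 1144 CPM (M6), and 899 together. Of them, 75.5% had a *Cd274* UMI at 2000 UMIs (70.7 to 79.8). They carried the granulocyte receptor gene *Csf3r* at 248 CPM, but also the macrophage gene *C1qa* at 850 CPM, so they are named here by the genes that picked them.

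The other Myeloid cells were ordered by complement C1q, which tissue macrophages make. Cells with fewer than 3 C1q UMIs had 387 CPM of *Cd274* (192, 302, 489 and 455 in M1, M2, M5 and M6). Cells with 3 or more had 226 CPM (122, 208, 299 and 301) and were lower in 4 of 4 libraries. The 286 cells with mast cell UMIs, which had 5461 CPM of the mast cell protease *Cpa3*, had 74.7 CPM.

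*Pdcd1lg2* differed from *Cd274* in where the *S100a8* and *S100a9* cells fell. It had 55.7 CPM in the *S100a8* and *S100a9* cells, 72.5 in cells with few C1q UMIs, 53.4 in cells with many and 43.5 in those with mast cell UMIs. When pooled, the last 3 had the same order as for *Cd274*, but cells with mast cell UMIs were above those with many C1q UMIs in 2 of 4 libraries, against 0 of 4 for *Cd274*. Cells with many C1q UMIs were below those with few in 4 of 4 libraries by CPM, but in M1 the values were nearly equal (34.15 and 34.16 CPM). By thinned share M5 was reversed (13.7% of cells with many and 12.6% of cells with few).

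Among the picked sets of DC, both PD-1 ligands were highest when pooled in the set with mature dendritic cell genes. Counted cell by cell, they were not found together more often in pooled DC, as given below. The 116 DC with 2 or more UMIs of *Ccr7*, *Fscn1* and *Cacnb3*, genes of mature migratory dendritic cells, had 432, 418, 311 and 479 CPM of *Cd274* in M1, M2, M5 and M6. The 126 DC with *Xcr1* or *Clec9a* UMIs had 52.2, 96.8, 174 and 125 CPM. The first were 3.92-fold higher when pooled and higher in 4 of 4 libraries, with no overlap between the ranges.

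The same held for *Pdcd1lg2*, which had 177, 146, 166 and 212 CPM in the *Ccr7* cells and 10.98, 53.4, 63.5 and 66.9 in the *Xcr1* cells, a pooled ratio of 3.70 with higher thinned shares in 3 of 4 libraries. These were the highest *Pdcd1lg2* levels of any cells picked, at 184 CPM. The 77 DC with *Siglech* or *Ccr9* UMIs, genes of plasmacytoid dendritic cells, had 4.93 CPM of *Pdcd1lg2*, on 4 UMIs, and 54.2 CPM of *Cd274*. Each group of DC held 7 to 49 cells per library, so these values carry wide counting error.

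T cells with different marker UMIs differed in *Cd274* and less so in *Pdcd1lg2*. Over the T cell and NKT labels, the 447 cells with a UMI of *Foxp3*, the regulatory T cell factor, had 155, 76.7, 155 and 120 CPM of *Cd274* in M1, M2, M5 and M6. The 318 cells with *Cd4* and no *Foxp3*, *Cd8a* or *Cd8b1* UMI had 129, 108, 109 and 110 CPM. The 3542 cells with *Cd8a* or *Cd8b1* and no *Foxp3* or *Cd4* UMI had 43.7, 61.5, 81.0 and 95.1 CPM.

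Both the *Foxp3* and the *Cd4* cells were above the *Cd8* cells in 4 of 4 libraries, at 1.88-fold and 1.55-fold when pooled. *Lyz2*, a transcript of myeloid cells, was at 319 CPM in *Foxp3*, 349 in *Cd4* and 350 in *Cd8* cells, and its part in the difference was not tested. *Pdcd1lg2* had 88.9, 78.1 and 95.1 CPM in the *Foxp3*, *Cd4* and *Cd8* cells, and *Cd8* cells were above *Foxp3* cells in 3 of 4 libraries.

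ILC were split by UMIs of the CD3 chains, which innate cells should lack. The 3140 ILC with none among 2000 UMIs had 112 CPM of *Pdcd1lg2* and 98.2 of *Cd274*, and they carried *Ncr1*, a receptor of NK cells and some ILC, at 499 CPM. The 1379 ILC with a CD3 UMI had 102 CPM of *Pdcd1lg2*, lower in 4 of 4 libraries, and 133 of *Cd274*, higher in 4 of 4. They also had more *Lyz2* (894 against 341 CPM), and the part of that in the difference was not tested.

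After thinning, 1743 Stroma cells had a UMI of the fibroblast collagen *Col3a1* and 13899 had none. Those with and without it had 49.6 and 41.9 CPM of *Cd274* and 1.06 and 1.21 CPM of *Pdcd1lg2*. The first were above the second in *Cd274* in 3 of 4 libraries. The 29 Stroma cells with endothelial UMIs had 109 CPM of *Cd274*, on 61 UMIs, and held the 3 *Tnfsf18* UMIs described above.

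**Figure D2:**
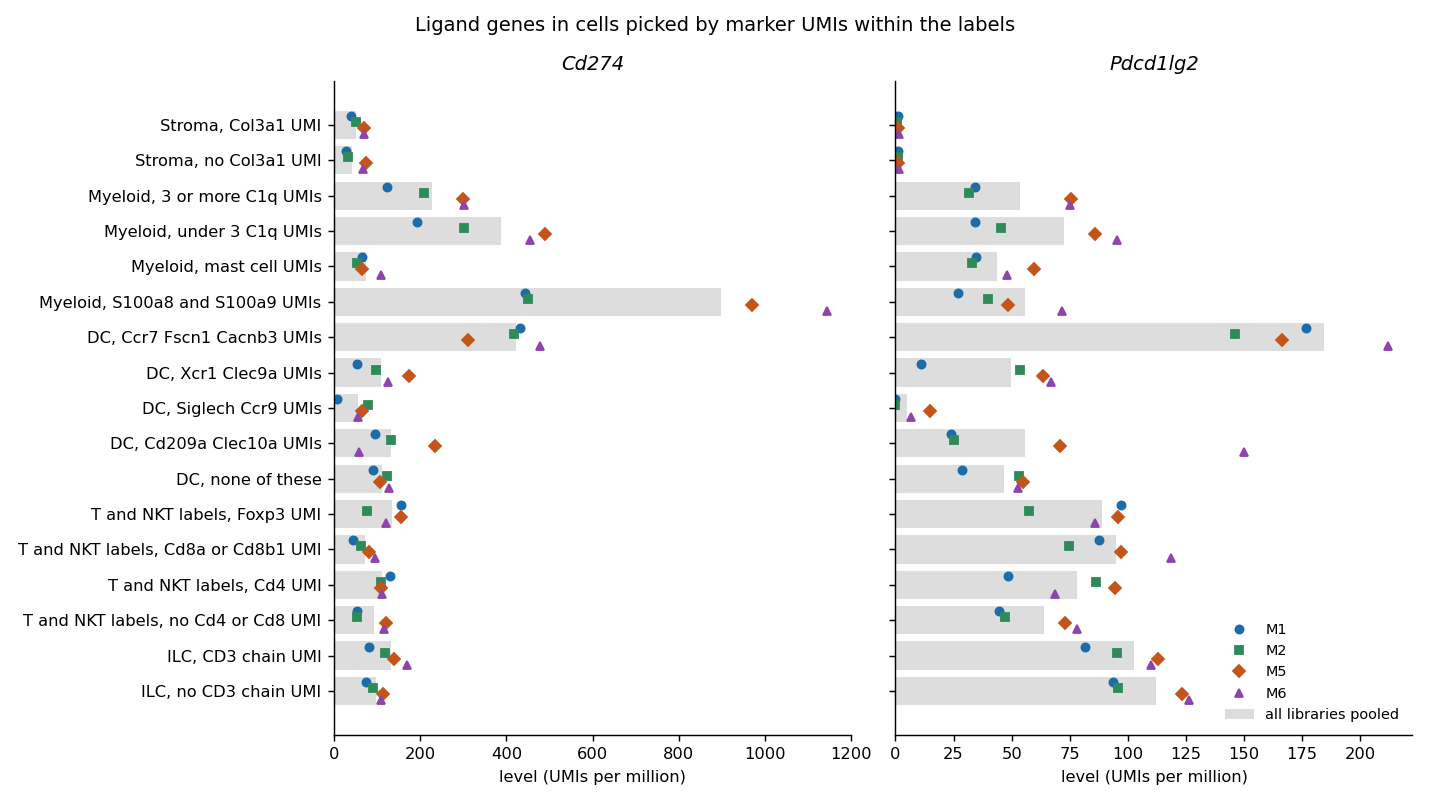
Level of *Cd274* (left) and *Pdcd1lg2* (right) in CPM, on separate horizontal axes from 0, in cells picked by marker UMIs within the labels. Bars are all libraries pooled and points the 4 libraries. The longest bars are the Myeloid cells with *S100a8* and *S100a9* UMIs for *Cd274* (899) and the DC with *Ccr7*, *Fscn1* and *Cacnb3* UMIs for *Pdcd1lg2* (184).

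Droplets also pick up free RNA and second cells, so the level that transcripts of other cells would bring was set beside each measured level. *Lyz2* was used to follow Myeloid transcripts and the matrix gene *Sparc* to follow Stroma transcripts, with the assumption that 1 source keeps its genes in 1 ratio. For *Cd274* this came to 24.8 of 67.8 CPM in T cell EFF (36.6%), 34.1 of 112 in ILC (30.6%), 34.0 of 158 in DC (21.5%), 28.2 of 135 in T cell MEM (20.8%), 9.80 of 61.0 in NK cells (16.1%) and 8.92 of 128 in NKT (6.96%). The lymphocyte levels of *Cd274* were thus larger than this estimate in every label, by the least in T cell EFF.

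For *Pdcd1lg2* the estimate was 1.53% of the measured level in NK cells, 1.57% in NKT, 4.27% in T cell EFF, 4.98% in ILC, 5.24% in T cell MEM and 7.83% in DC. Cells with and without a UMI of *Lyz2* or of the C1q genes at full depth were compared as well. In T cell EFF, 16.8% of cells without such a UMI had a *Pdcd1lg2* UMI at 2000 UMIs, against 15.3% of cells with one, and in ILC the shares were 19.4% without and 18.5% with one. In T cell MEM (12.9% against 15.5%) and NKT (12.2% against 17.1%) the share was lower in the cells without. For *Cd274* the share was lower without such UMIs in T cell EFF (9.61% against 12.2%), ILC (16.8% against 19.96%), T cell MEM and NKT, and not in NK cells (12.8% against 12.4%). By CPM some directions differed. *Pdcd1lg2* in T cell MEM had 97.8 CPM in cells without and 87.2 in cells with such a UMI. *Cd274* was lower without in each of these labels, at 57.7 against 64.7 CPM in NK cells and 117 against 138 in NKT. The *Cd274* gap was wider in T cell EFF (52.6 against 75.9), ILC (81.5 against 129) and T cell MEM (94.9 against 156).

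Transcripts could also pass from lymphocytes to Myeloid cells. Followed by the T cell gene *Trac* and by *Ncr1*, T cell EFF and NK transcripts would bring 17.2% and 13.9% of the *Pdcd1lg2* level of Myeloid cells, and 2.33% and 1.66% of their *Cd274* level. With *S100a9* as the tracer of the *S100a8* and *S100a9* cells, those would bring between 3.42% (NKT) and 14.6% (T cell MEM) of *Cd274* in the lymphocyte labels.

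**Figure D3:**
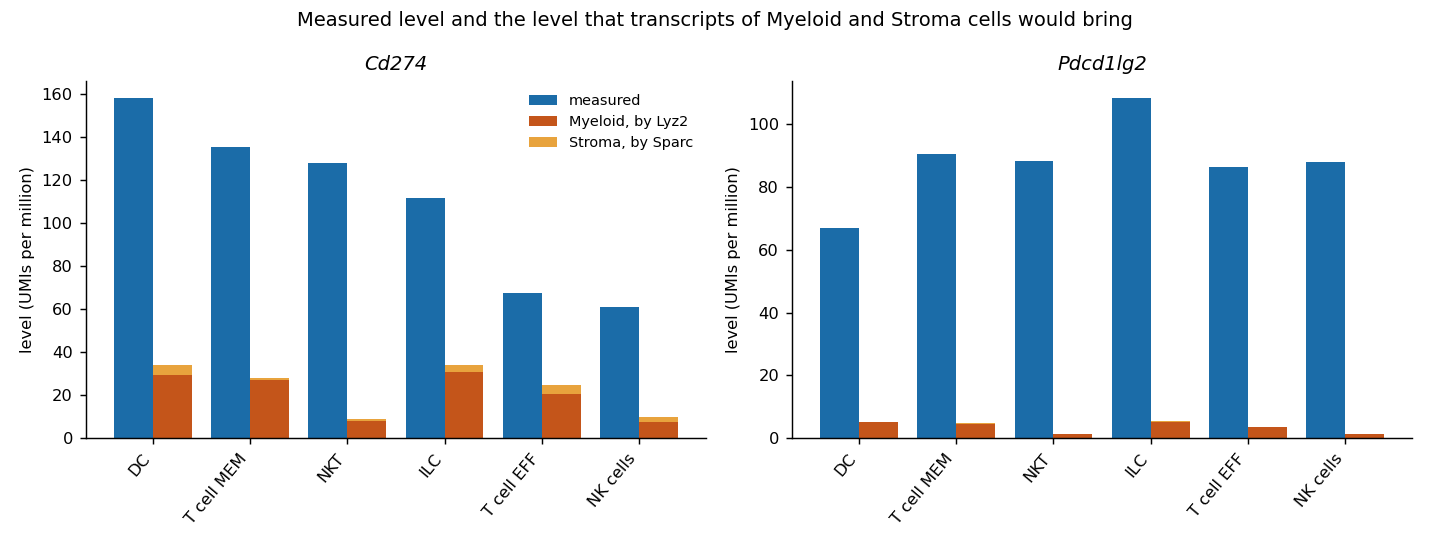
Measured level (blue) of *Cd274* and *Pdcd1lg2* in CPM beside the level that Myeloid transcripts (by *Lyz2*) and Stroma transcripts (by *Sparc*) would bring, for 6 labels. The estimate reaches 36.6% of the measured *Cd274* in T cell EFF and at most 7.83% of *Pdcd1lg2*, in DC.

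The level of *Cd274* differed between libraries more than that of most genes. In Stroma the highest library was 2.65 times the lowest, a ratio that 0.353% of 7363 genes exceeded, with a median of 1.15 over all genes. In Myeloid cells the ratio was 2.97, exceeded by 1.89% of genes, with a median of 1.27. In NKT it was 1.49, below the median of 1.52. M1 was lowest in 7 of the 8 labels. These libraries are not replicates of a group, and the treatment of each is unknown.

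The makeup of the Myeloid label also differed between libraries, and its part in the values was not tested. Cells with *S100a8* and *S100a9* UMIs were 8.91% (M1), 10.02% (M2), 12.2% (M5) and 22.5% (M6) of Myeloid cells. In those cells *Cd274* had 443 CPM in M1 and 451 in M2, with overlapping counting intervals, and by thinned share M2 was lower (53.6% against 61.2%). M1 was lowest in the cells with few C1q UMIs, and M2 in those with mast cell UMIs.

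For *Pdcd1lg2* the ratio of the highest to the lowest library was 1.35 in ILC, 1.36 in NK cells, 1.42 in T cell MEM, 1.54 in T cell EFF, 1.69 in Stroma and 1.90 in NKT, against 2.56 in Myeloid cells and 2.87 in DC. Among DC, the share of cells with *Ccr7*, *Fscn1* and *Cacnb3* UMIs was 13.7% (M1), 16.7% (M2), 23.4% (M5) and 33.1% (M6), in the same order as the *Pdcd1lg2* level of the label (37.1, 54.6, 73.2 and 106 CPM). The *Xcr1* cells alone also rose in that order, from 10.98 to 66.9 CPM, and the *Ccr7* cells did not. That rise rests on 98 UMIs in 126 *Xcr1* cells, 24 to 44 per library, so its order carries wide counting error. The part of the makeup in the level was not tested.

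Interferon gamma response genes were followed beside *Cd274*, as a list of 12 genes (the chemokines *Cxcl9* and *Cxcl10*, the GTPases *Gbp2*, *Gbp4*, *Igtp* and *Irgm1*, the inhibitor *Socs1*, and *B2m*, *Tap1*, *Psmb8*, *Psmb9* and *Cd74* of antigen presentation). In Stroma their summed level was 4590 (M1), 5040 (M2), 6899 (M5) and 6443 CPM (M6), the same order of libraries as *Cd274*. T cell MEM and NKT also had the same order for the list and for *Cd274*, so the orders matched in 3 of 8 labels and not in the other 5. In T cell MEM and NKT *B2m*, the largest part of the sum, had that order by itself. It had 2570, 2817, 3374 and 3172 CPM in T cell MEM and 3047, 2868, 3706 and 3479 in NKT, in M1, M2, M5 and M6. *Psmb8*, the next largest, did not have it (827, 876, 837 and 759 in T cell MEM, 929, 783, 734 and 816 in NKT). The order of the list without *B2m* was not tested. In Myeloid cells and DC the list and *Cd274* were lowest in M1, but the list was highest in M5 and *Cd274* in M6. In ILC and T cell EFF the list was lowest in M2 and highest in M5, against M1 and M6 for *Cd274*. In NK cells the summed list hardly varied, between 4080 and 4215 CPM, and its lowest library was M5. *B2m* alone had 2328 to 2588 CPM of that sum. *Cxcl10* varied more, at 125 (M1), 173 (M2), 80.5 (M5) and 53.8 CPM (M6), as did *Cxcl9* (5.07 to 22.6), while *Gbp4* had 165 to 182.

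Within Stroma, cells with a *Cd274* UMI had more of every gene of this list. After thinning, 1199 of 15642 Stroma cells had one. In each of the 4 libraries all 12 genes were higher in them than in the other Stroma cells, which was so for 16.2% of the 5528 genes with at least 20 CPM in the cells with the UMI. With the minimum set on all Stroma cells instead, a choice made after values were seen, it was so for all 12 and for 14.7% of 5403 genes. The median log2 ratio was 1.02 over the list and 0.02 over all genes tested. *Cxcl10* had 2345 against 512 CPM, and *B2m*, at the other end, 3033 against 2467.

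Among the genes with at least 20 CPM in the cells with the UMI that were higher in all 4 libraries, the 10 with the largest ratio were *Rsad2* (241 against 45 CPM, log2 ratio 2.40), *Cxcl10* (2.19), *Gbp5* (2.06), *Ifit1* (1.99), *Ubd* (1.88), *Ifit2* (1.87), *Cxcl9* (1.84), *Ifit3* (1.83), *Cmpk2* (1.80) and *Gm4841* (1.71). This minimum favours genes that are high in those cells: *Ubd*, *Ifit2*, *Cmpk2* and *Gm4841* were below 20 CPM in the other Stroma cells. With the minimum set on all Stroma cells 7 of the 10 stayed among the first 10, and *Ubd*, *Ifit2* and *Cmpk2* did not pass. *Rsad2* and the *Ifit* genes are antiviral genes known to be induced by interferons. *Irf1* had 585 against 268 CPM (2.18-fold), higher in 4 of 4 libraries. *Lyz2* (20.9 against 18.9 CPM) was higher in 2 of 4, a smaller ratio (1.11-fold) than that of any gene of the list.

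In Myeloid cells *Irf1* was at 706 CPM in cells with and 287 in cells without a *Cd274* UMI, 2.46-fold and higher in 4 of 4 libraries, among 10 measures looked at in that label. The list of 12 was 1.22-fold higher (4 of 4), and 1.48-fold (4 of 4) without *Cd74* and *B2m*, its 2 most abundant genes there. *Cd80*, a ligand of CD28 that also binds PD-L1 on the same cell, was 2.10-fold higher in Myeloid cells (85.1 against 40.5 CPM) and 2.93-fold higher in DC (173 against 59.0), in 4 of 4 libraries each. Cells with and without a *Cd274* UMI also differed in makeup. Of Myeloid cells, 75.5% of those with *S100a8* and *S100a9* UMIs but 10.8% of those with mast cell UMIs had one. In DC it was 44.8% of the *Ccr7* cells and 15.1% of the *Xcr1* cells. The part of this makeup in the ratios was not tested. The share of all genes higher in 4 of 4 libraries was not counted in Myeloid cells or DC.

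In lymphocytes the ratios of the list and of *Irf1* were smaller than in Stroma and Myeloid cells, and *Lyz2* moved with them except in NKT. For the list, ILC lay close to Myeloid cells. The ratios were not all smaller than in DC. In DC with a *Cd274* UMI the list was 1.11-fold and *Irf1* 1.38-fold higher, in 3 of 4 libraries each. In ILC with a *Cd274* UMI *Irf1* was 1.498-fold higher (4 of 4). The list was 1.20-fold higher in ILC with a *Cd274* UMI, 1.14-fold in T cell EFF and 1.13-fold in NK cells. *Lyz2* was 1.81-fold, 1.92-fold and 1.79-fold higher in the same cells, in 4 of 4 libraries each. In NKT cells, *Lyz2* was lower in cells with a *Cd274* UMI (0.611-fold, higher in 0 of 4) and the list was 1.05-fold higher.

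*Pdcd1lg2* showed no such relation in the label where most cells carried it. Of 4519 ILC, 856 had a UMI after thinning. The summed list had 5001 CPM in them and 5089 in the others, and 1 of its 11 genes with at least 20 CPM in the cells with the UMI was higher in 4 of 4 libraries, beside 8.35% of the 5497 genes tested. *Cxcl9*, at 16.9 CPM with and 33.3 without the UMI, missed that minimum. With it set on all ILC, 1 of 12 was higher, beside 7.60% of 5568 genes. *Irf1* was at 113 against 136 CPM and higher in 0 of 4 libraries.

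By the same rule *Gadd45g*, a stress gene of lymphocytes, led in ILC with a *Pdcd1lg2* UMI, with a log2 ratio of 1.27 (103 CPM in ILC without a *Pdcd1lg2* UMI), before *Ccdc184* (1.23), *Nrn1* (0.96), *Vac14* (0.90), *Ufsp2* (0.78), *Cdk5* (0.77), *Muc1* (0.74), *Ddit3* (0.72), *Pold1* (0.72) and *Mbip* (0.69). With the minimum set on all ILC, *Gadd45g*, *Ccdc184* and *Ddit3* stayed among the first 10 and the other 7 did not pass. In NK cells with a *Pdcd1lg2* UMI *Lyz2* was lower (81.9 against 132 CPM, higher in 0 of 4 libraries).

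In Myeloid cells and DC with a *Pdcd1lg2* UMI the list was 1.27-fold and 1.30-fold higher, in 4 of 4 libraries each, while *Irf1* in Myeloid cells was 0.807-fold. Most of that sum was *Cd74* and *B2m*. Without these 2 genes, left out after values were seen, the list was 0.992-fold in Myeloid cells (higher in 1 of 4 libraries) and 1.22-fold in DC (3 of 4). Transcripts of other cell types were also higher in 4 of 4 libraries there, the T cell gene *Cd3e* 1.51-fold in Myeloid cells, and *Lyz2* 1.77-fold and *Ncr1* 2.56-fold in DC, and their part in the result was not tested. The difference between labels was not tested.

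**Figure D4:**
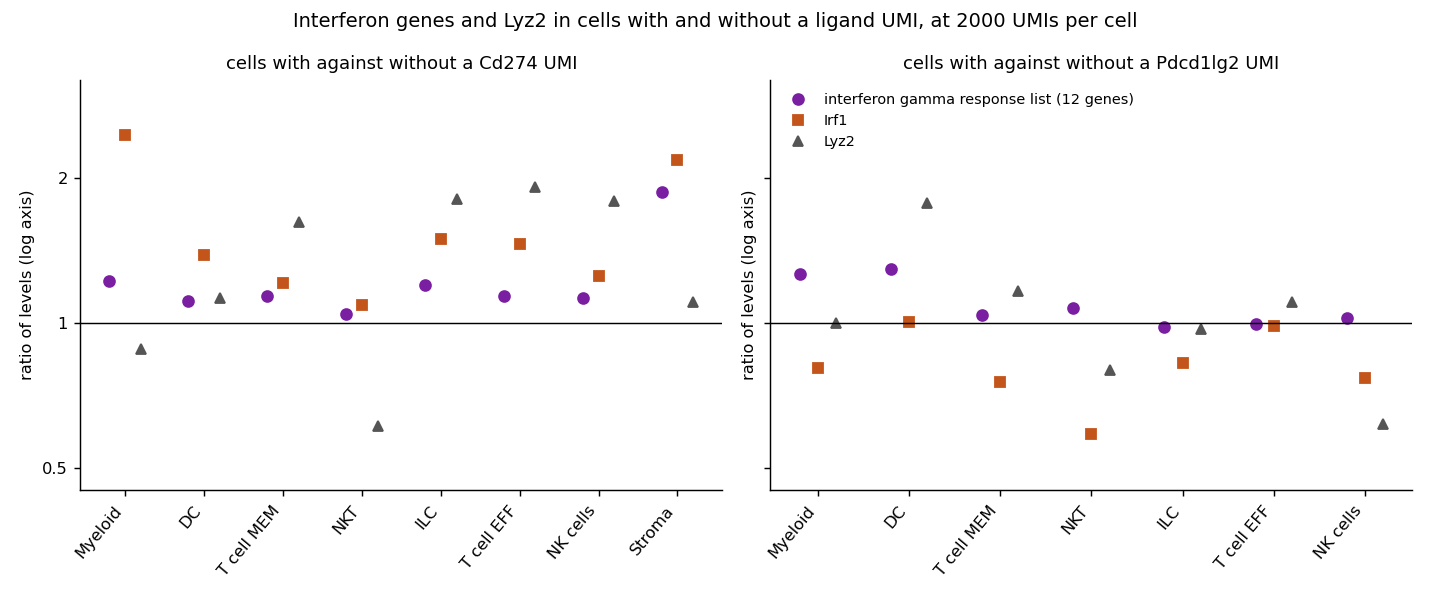
Ratio of levels in cells with against cells without a *Cd274* UMI (left) or a *Pdcd1lg2* UMI (right) at 2000 UMIs per cell, on a log axis, for the interferon gamma response list, *Irf1* and *Lyz2*. The list lies above 1 in all 8 labels for *Cd274* and furthest in Stroma (1.87), and *Lyz2* lies above it in ILC, T cell EFF, T cell MEM and NK cells and marginally in DC.

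Cells with both PD-1 ligands were counted at 2000 UMIs. In Myeloid cells and DC together, 48.6% of 278 cells with a *Pdcd1lg2* UMI also had *Cd274* (42.5 to 54.6), against 40.03% of 2808 cells without one (38.2 to 41.9). By library it was 7.75 (M1), -9.14 (M2), 6.44 (M5) and 8.24 percentage points (M6), so it held in 3 of 4 libraries and was reversed in M2. The pooled difference of 8.53 points was 5.32 without M6 and 13.6 at 4000 UMIs. In Myeloid cells the pooled difference of 13.8 points was larger than that of any library, which was 10.7 (M1), -3.34 (M2), 10.5 (M5) and 11.97 (M6). In DC it was -4.21 pooled, and 10.4 (M1), -17.1 (M2), -15.8 (M5) and 2.36 (M6). In ILC the pooled difference was -1.41 points and in T cell EFF 3.70.

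*Pdcd1*, which encodes PD-1, had 567 CPM in T cell EFF (468 to 764 by library) and 468 in T cell MEM (414 to 713), and these 2 labels overlapped. It had 61.2 CPM in Myeloid cells, 10.3 in NK cells and 1.45 in Stroma. *Tnfrsf18*, the GITR gene, had 750 CPM in NKT (567 to 881) and was highest there in 4 of 4 libraries, as 6.13% of genes were. The NKT label also had the most *Foxp3* (196 CPM, before T cell MEM at 64.2) and *Cd4* (145 CPM) of the 8 labels, and 9.25 CPM of the NK receptor gene *Klrb1c*, so its markers do not bear out its name and it is called NKT here only as the authors' label. *Tnfrsf18* followed with 463 in T cell MEM, 340 in T cell EFF, 224 in ILC and 148 in NK cells.

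In T cell EFF, 10.4% of cells with and 12.1% of cells without a *Pdcd1* UMI had *Cd274*, which was lower with *Pdcd1* in 4 of 4 libraries. For *Pdcd1lg2* the shares were 17.1% and 14%, higher with *Pdcd1* in 3 of 4. In T cell MEM the *Pdcd1lg2* shares were 16.99% and 12.2%, higher with *Pdcd1* in 4 of 4. The binomial intervals overlapped in each of these 3 pairs. In ILC, 21.5% of cells with a *Tnfrsf18* UMI (19.5 to 23.6) and 17.5% of cells without one (16.1 to 18.9) had *Pdcd1lg2*. These pooled intervals did not overlap. By library the difference was 3.64 (M1), -1.69 (M2), 6.04 (M5) and 4.996 percentage points (M6), so the share was higher with *Tnfrsf18* in 3 of 4. The intervals cover counting error in pooled cells and not differences between libraries, so their separation is no test. In the other pairs of a receptor and a PD-1 ligand in T cell EFF, T cell MEM, NKT, ILC and NK cells the pooled intervals overlapped.

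The other genes of the pathway were taken from a list of 41 genes by role, of which 38 had at least 10 CPM in a label of at least 500 cells. Of these, 20 were highest in the same label in all 4 libraries, near the 49.5% of all genes: 9 in DC (where 6.88% of all genes were), 4 in Stroma, 3 in Myeloid cells, 3 in NKT and 1 in NK cells. A gene that reached 10 CPM through 1 label alone had to be highest there. Among other binding partners, *Cd80* was highest in DC (73.0 CPM) and *Rgmb*, a co-receptor of BMP signaling that binds PD-L2, in Stroma (50.3). Of the 2 genes that stabilise PD-L1, *Cmtm6* was highest in DC (113) and *Cmtm4* in Stroma (43.3), among the labels of at least 500 cells.

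Genes that carry the interferon gamma signal differed by label. The receptor chain *Ifngr1* had 285 CPM in Myeloid cells, 1142 in NKT and 42.6 in Stroma, whereas the second chain *Ifngr2* had 80.7, 19.2 and 34.7. *Irf1*, the factor that acts on *Cd274*, had 348 CPM in Myeloid cells, 276 in Stroma and 98.7 in NK cells. Among the 8 labels of at least 500 cells, *Ptpn6*, a phosphatase recruited by inhibitory receptors, was highest in Myeloid cells (138). *Ptpn11*, which PD-1 recruits, lay between 42.5 and 65.4 CPM in all 8.

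Of the 5 other B7 genes, *Cd86*, the second ligand of CD28, had 265 CPM in DC and 135 in Myeloid cells. *Icosl* reached the minimum of 10 CPM in DC alone (10.1, before 2.97 in Myeloid cells). *Vsir* had 23.3 to 67.3 CPM in the labels of at least 500 cells other than Stroma, and *Cd276* and *Vtcn1* stayed below 10 CPM in every label.

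Of the 6 other TNF ligands, 5 reached 10 CPM in a label. *Tnfsf4*, the neighbour of *Tnfsf18*, had 2082 UMIs and reached 14.6 CPM in T cell EFF and 11.7 in ILC. Among the labels of at least 500 cells, *Tnfsf9*, the 4-1BB ligand, was highest in Myeloid cells (52.8), and *Tnfsf8*, the CD30 ligand, reached 63.3 in NKT. *Tnfsf15* had 129 UMIs and stayed at 2.26 CPM or less. The 4 GITR adaptors did not share 1 label. Among the labels of at least 500 cells, *Traf1* was highest in NKT (488 CPM). *Traf2* varied little, from 21.6 CPM in DC to 35.8 in NKT. *Traf5* was highest in T cell EFF (27.7, before 25.6 in NKT), and *Siva1* in Stroma (149, against 61.6 in NKT).

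**Figure D5:**
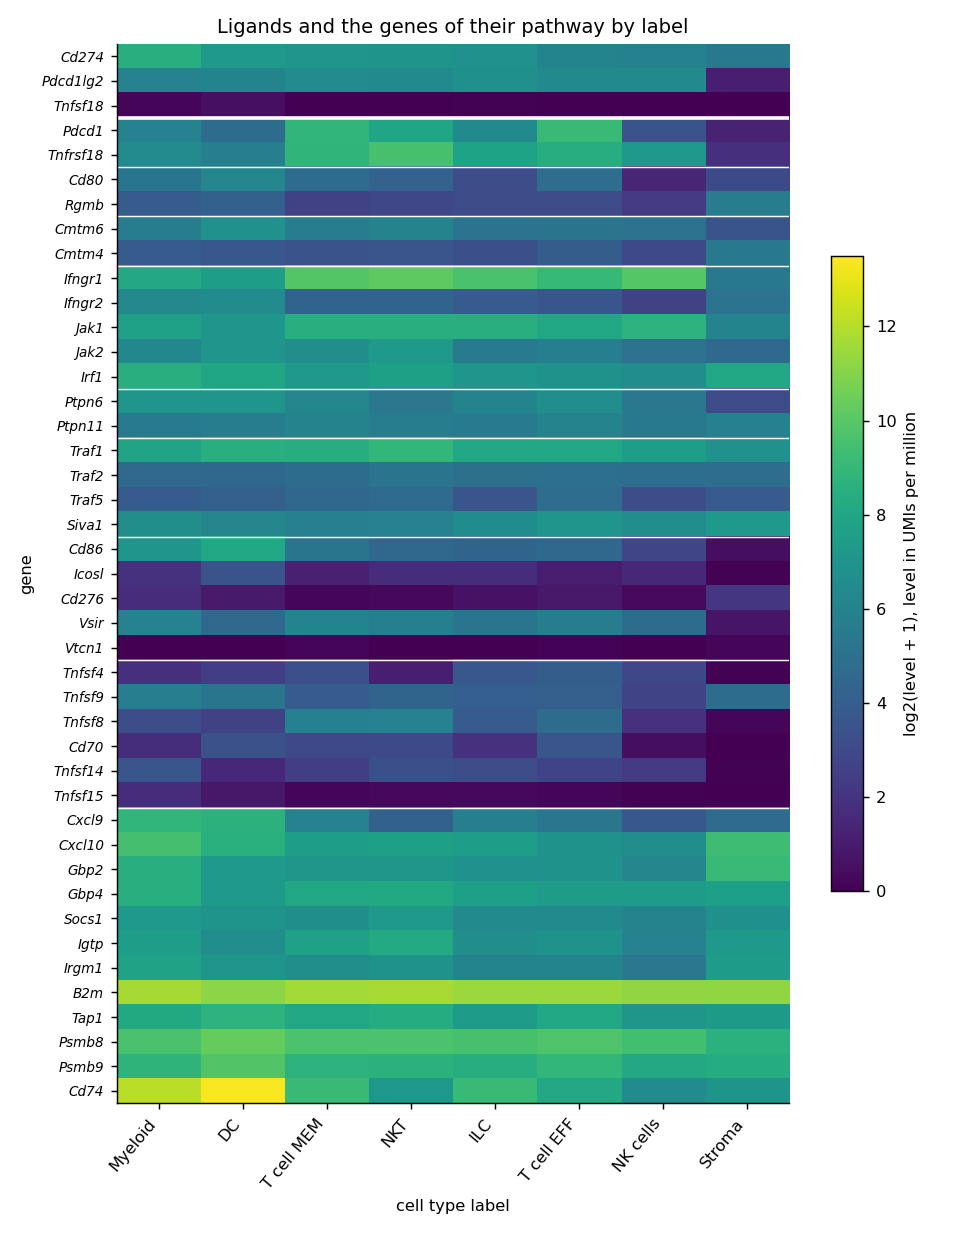
Level by label of the 3 ligand genes (above the thick white line) and of genes of their pathway grouped by role (thin lines), as log2(level + 1) with levels in CPM. Rows are to be read along, not against each other, since genes differ in length and capture. *Tnfsf18* is dark throughout, and *Pdcd1lg2* is dark in Stroma alone.

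The genes with the pattern most like each ligand were found by correlation of log2(CPM + 1) over the 10 labels of at least 100 cells, among 10053 genes. Labels share libraries and depth, so these values are descriptions. For *Cd274* they were *Msrb1* (r = 0.946), *Rapgef2*, *Cysltr1*, *Slc31a2* and *Slc15a3* (0.935), all highest in Myeloid cells. For *Pdcd1lg2* they were *Rps6ka1* (0.987), *Runx3*, a factor of cytotoxic lymphocytes, *Selplg*, *Ccdc88b* and *Pla2g16* (0.984), all at their lowest in Stroma. *Cd274* and *Pdcd1lg2* correlated at 0.546 with each other, and *Pdcd1lg2* ranked 1080 among the genes most like *Cd274*.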

How the data were processed

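The deposited table holds whole-number UMI counts per gene and cell, which the authors made with Cell Ranger 3.0.2 on build GRCm38 (mm10), with cells kept above 500 UMIs. The deposited cell labels came from the authors' correlation of each cell with ImmGen profiles. No batch date is given, and the library names could not be tied to samples, so no comparison of treatments or count model was run.

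Counts were summed per label and library and scaled to CPM, with exact Poisson intervals at 95%. Shares were counted after seeded thinning to 2000 UMIs, with exact binomial intervals, and a count of 0 was read as at most 3. Intervals and limits cover counting error only. A pseudocount of 1 CPM was added before logs. Labels of at least 500 cells were ordered. Named genes were the 3 ligands, 41 pathway genes by role (1 of them is counted but not reported here), the 5 genes most alike over labels of at least 100 cells, and the 10 genes with the highest ratio in cells with against without a ligand UMI, among genes of at least 20 CPM in the former that were higher in all 4 libraries. Doublets were scored with scrublet (scanpy 1.11.5) and kept, and the 6% highest scores were left out as an alternative. The members and lists were chosen with earlier results of these data known, and the shorter promoter letters, the *Lyz2* and C1q split and the *S100a9*, *Trac* and *Ncr1* tracers, the 20 CPM minimum over all cells of a label and the list without *Cd74* and *B2m* after values were seen. The scripts were tested on simulated data and run in Python 3.11.15 with numpy 2.4.6, scipy 1.17.1 and pandas 2.3.3.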

Additional observations from a re-analysis of the deposited data

How the results depend on the processing

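Over 78 alternative settings, 49 values stayed within the counting error of the main value, 28 moved and 1 changed sign. The 49 include 8 settings of the *Tnfsf18* ratio, 9 of its share and 6 of its level. Its counting error is so wide (log2 ratio -1.94 to 2.61) that staying within it says little. All 28 that moved were of *Cd274* and *Pdcd1lg2*. The log2 ratio of the highest label to the next was 1.21 for *Cd274* (Myeloid over DC), and became 1.11 with libraries weighted equally, 1.84 with cells weighted equally and 1.12 to 1.29 with 1 library left out. For *Pdcd1lg2* (ILC over T cell MEM) it was 0.26, and became 0.52 with cells weighted equally, 0.41 without the highest doublet scores and 0.24 to 0.30 with 1 library left out. For *Tnfsf18* (DC over Myeloid) it was 0.40, turned to -0.18 with cells weighted equally, and was 0.21 to 0.62 with 1 library left out. The share of Myeloid cells with *Cd274*, 45.2%, became 30.7% at 1000 UMIs, 63.1% at 4000, 73.6% without thinning and 47.5% without cells over 10% mitochondrial UMIs, and was 39.9% to 49.7% with 1 library left out. The share of ILC with *Pdcd1lg2*, 18.9%, became 10.4%, 35.2% and 59.8% at the same depths, and was 17.9% to 20.2% with 1 library left out. Without the highest doublet scores the levels were 409.97 CPM for *Cd274* in Myeloid cells and 118 for *Pdcd1lg2* in ILC, and with 1 library left out 299 to 424 and 103 to 114. The causes were not tested.

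No paired analysis was possible because the libraries carry no replicate number and no test between groups was run. Each treatment is unknown at the level of the libraries, the labels rest on whole profiles, and the estimate of transcripts from other cells assumes that a tracer is made by its source alone. With 24 UMIs, the depth does not allow *Tnfsf18* to be compared between cell types or libraries.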
